A study of Mus musculus with 27 samples.

Results

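The dendritic cell genes described here were 10 named genes that mark dendritic cells or their subsets, Flt3, Irf8, Zbtb46, Batf3, Xcr1, Itgae, Clec9a, Cd209a, Ccr7 and Siglech. Of the 10 named genes, 9 were measured among the 18194 genes on the arrays, while no probe set with a single symbol was matched to Clec9a, which was not analysed here. Female mice aged 10 to 12 weeks received 12.5 or 15 Gy of x-rays to the whole thorax, or sham irradiation (0 Gy), and lungs were taken 24 hours later. The strains were C57L/J, CBA/J and C57BL/6J, and every combination of strain and dose had 3 mice, with RNA of the right upper lobe of each mouse on an Affymetrix mouse genome array of its own, 27 arrays in all. By the labels, the later lung pathology is mixed pneumonitis and fibrosis in C57L/J, pneumonitis in CBA/J, and fibrosis with mild pneumonitis in C57BL/6J. Whole lobes were measured, and the genes of the lung epithelium (Sftpc and Scgb1a1) averaged 14.43 to 15.10 on the log2 scale on every array.

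Dendritic cells sample antigen in tissue and carry it to lymph nodes, where they prime T cells. Lung holds conventional dendritic cells of type 1 (cDC1), which depend on the transcription factors Batf3 and Irf8, carry the chemokine receptor Xcr1 and the integrin Itgae (CD103) and lie in the airway epithelium. It also holds conventional dendritic cells of type 2 (cDC2), of which some monocyte-derived relatives carry the lectin Cd209a, and a few plasmacytoid dendritic cells, which carry Siglech. Flt3 is the receptor of the cytokine that maintains the lineage, Zbtb46 a transcription factor of conventional dendritic cells, and Ccr7 the receptor that guides mature dendritic cells to lymph nodes. Several of these genes have other sources in lung tissue, among them T cells for Itgae and Ccr7, B cells for Ccr7 and Irf8, macrophages for Irf8 and endothelium for Zbtb46.

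Thoracic irradiation was followed within 24 hours by lower levels of most of these genes in the fits over 3 strains. Over the 3 strains, with strain as a term of the limma fit, 8 of 9 genes were lower at 12.5 Gy than at 0 Gy at a Benjamini-Hochberg adjusted p under 0.05, against 6.17% of all 18194 genes. At 15 Gy 7 of 9 genes were lower, against 6.16% of all genes. Zbtb46 did not pass at either dose, and Siglech did not pass at 15 Gy. Both doses were set against the same sham-irradiated arrays. The median change of the 9 genes was -1.12 at 12.5 Gy and -1.04 at 15 Gy on the log2 scale, while that of all genes was -0.01 at both doses. Values throughout are log2 intensities of the brightest probe set of a gene, so that a change of -1 is a halving, and levels of different genes cannot be set against each other. In RNA of a whole lobe, fewer dendritic cells and less RNA per cell cannot be told apart.

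**Figure D1:**
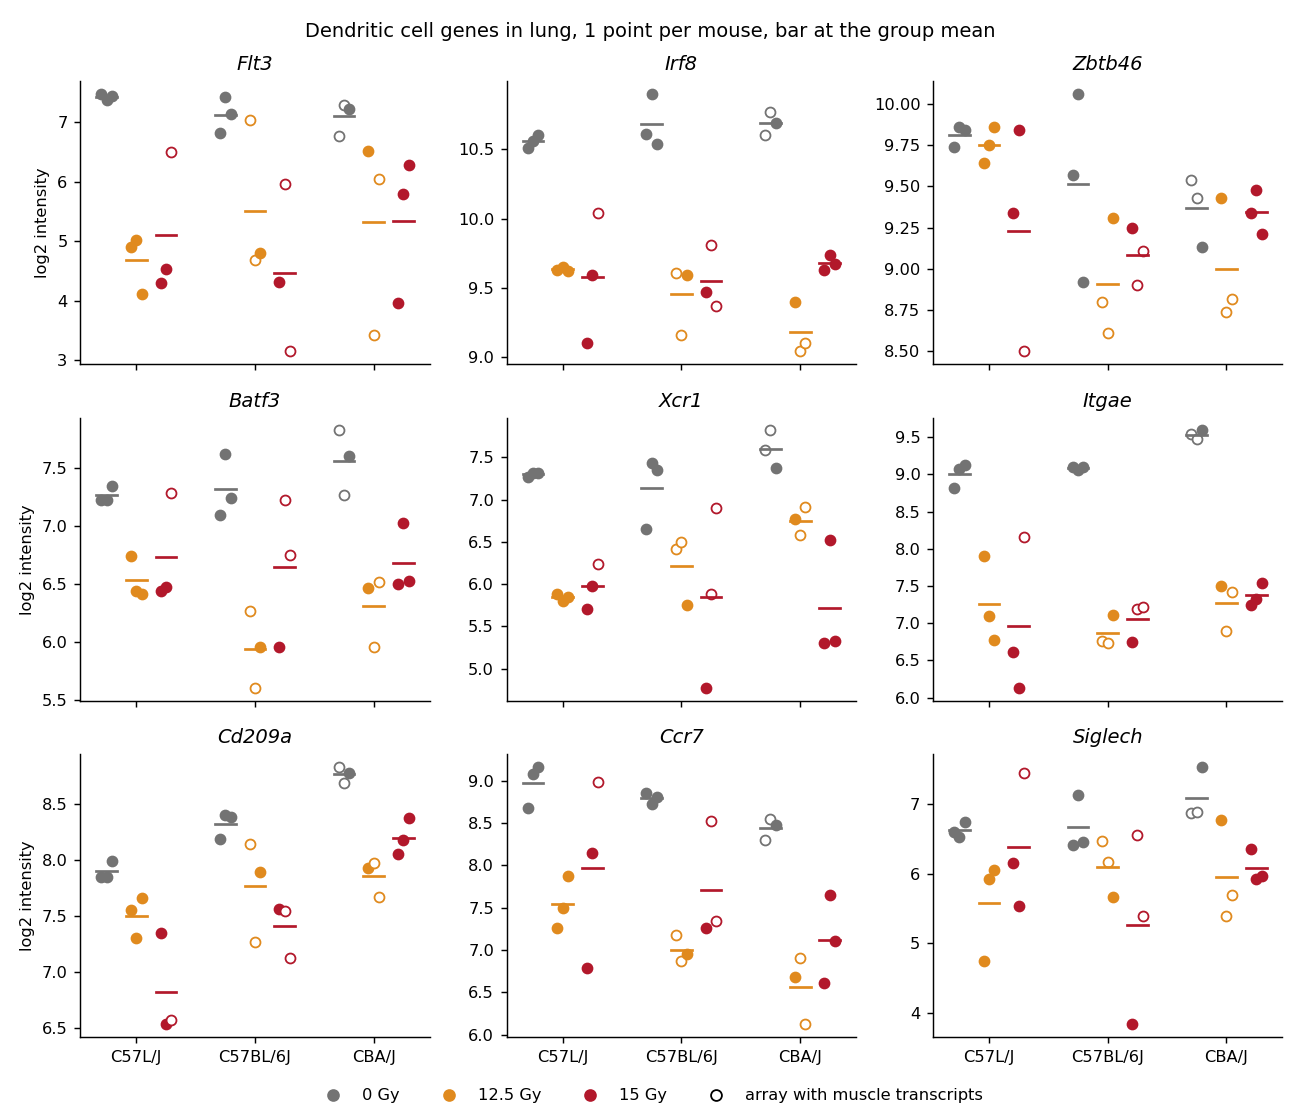
Log2 intensity of 9 dendritic cell genes in 3 strains, 1 point per mouse, with doses of 0, 12.5 and 15 Gy from left to right within a strain, a bar at the mean of each group of 3 and open points for arrays with skeletal muscle transcripts. Each panel has its own vertical axis. For Itgae the irradiated arrays lay between 6.13 and 8.16 and the sham-irradiated arrays between 8.81 and 9.59.

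Some arrays carried transcripts of tissues other than lung. Skeletal muscle genes averaged 9.22 to 14.74 on 9 arrays and 5.52 to 6.85 on the others, and these 9 arrays comprised 2 at 0 Gy, 4 at 12.5 Gy and 3 at 15 Gy. In C57BL/6J they were replicates 1 and 2 at 12.5 Gy and 2 and 3 at 15 Gy, with none at 0 Gy. In CBA/J they were replicates 1 and 2 at 0 Gy and 2 and 3 at 12.5 Gy, with none at 15 Gy. C57L/J had only replicate 3 at 15 Gy. Muscle transcripts were thus unevenly spread over the doses of a strain, and their part in comparisons within and between strains was not tested. Glycam1, a mucin of lymph node venules, stood at 10.52 to 12.38 on 3 arrays and at most 6.40 on the other 24. The arrays with Glycam1 were C57L/J 15 Gy replicate 3, C57BL/6J 15 Gy replicate 2 and CBA/J 0 Gy replicate 3. Thyroglobulin (Tg) reached 13.46 to 15.07 on C57L/J 15 Gy replicate 3, C57BL/6J 15 Gy replicate 2 and CBA/J 12.5 Gy replicate 3, and at most 5.63 elsewhere. A list of 3 thymocyte genes averaged 8.28 on C57L/J 15 Gy replicate 3 and at most 6.71 elsewhere. It was uneven among sham-irradiated arrays too, at 3.38 to 6.71, and arrays were not left out by its level. Changes over the 3 strains are also given below without the arrays with muscle transcripts and without those with Glycam1, and the part of those tissues in them was not tested.

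Flt3, the receptor tyrosine kinase on dendritic cells and their progenitors, was lower at both doses. In C57L/J lungs it measured 7.48, 7.38 and 7.44 at 0 Gy, 4.91, 5.02 and 4.12 at 12.5 Gy, and 4.30, 4.53 and 6.51 at 15 Gy. Lungs of C57BL/6J mice had 6.83, 7.43 and 7.14 at 0 Gy, 7.04, 4.68 and 4.8 at 12.5 Gy, and 4.31, 5.96 and 3.15 at 15 Gy. Those of CBA/J mice had 6.78, 7.30 and 7.23 at 0 Gy, 6.52, 3.43 and 6.05 at 12.5 Gy, and 3.96, 5.80 and 6.28 at 15 Gy. At 15 Gy all 9 arrays lay below the lowest sham-irradiated array, and at 12.5 Gy 8 of 9 did, the exception being C57BL/6J replicate 1. The spread among irradiated mice was wide, with 5.17 ± 1.16 at 12.5 Gy against 7.22 ± 0.26 at 0 Gy and 4.98 ± 1.18 at 15 Gy against the same 7.22 (SD, n = 9 each). Over the 3 strains Flt3 changed by -2.05 ± 0.40 at 12.5 Gy (SE, limma adjusted p = 0.0033) and by -2.25 ± 0.39 at 15 Gy (adjusted p = 0.00181), or 4.14-fold and 4.75-fold. At each irradiated dose 5 of 9 arrays lay under a log2 value of 5, where intensities are dim, and with a floor at that value the changes were -1.71 at 12.5 Gy and -1.72 at 15 Gy. With that floor Itgae, at -2.08, had the larger change at 15 Gy, whereas without it Flt3 did. Leaving out the arrays with muscle transcripts gave Flt3 changes of -2.27 at 12.5 Gy and -2.65 at 15 Gy, and leaving out those with Glycam1 gave -2.05 and -2.71.

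Irf8, the transcription factor that cDC1 and plasmacytoid dendritic cells require, separated irradiated from sham-irradiated mice on every array. C57L/J lungs had 10.51, 10.56 and 10.60 at 0 Gy, 9.63, 9.65 and 9.62 at 12.5 Gy, and 9.10, 9.59 and 10.04 at 15 Gy. In C57BL/6J lungs the values were 10.61, 10.90 and 10.54 at 0 Gy, 9.61, 9.16 and 9.59 at 12.5 Gy, and 9.47, 9.81 and 9.37 at 15 Gy. Lungs of CBA/J mice had 10.60, 10.77 and 10.69 at 0 Gy, 9.40, 9.04 and 9.10 at 12.5 Gy, and 9.63, 9.74 and 9.67 at 15 Gy. The highest irradiated array, 10.04 on C57L/J 15 Gy replicate 3, lay under the lowest sham-irradiated array at 10.51. Irf8 changed by -1.22 ± 0.10 at 12.5 Gy (SE, adjusted p = 5.42e-07) and by -1.04 ± 0.10 at 15 Gy (adjusted p = 1.41e-05). Without the muscle arrays its changes were -1.04 at 12.5 Gy and -1.16 at 15 Gy, and without those with Glycam1 -1.2 and -1.16. A second Irf8 probe set changed in the same direction, by -0.74 ± 0.13 at 12.5 Gy (adjusted p = 0.00177 over 34958 probe sets) and -0.54 ± 0.12 at 15 Gy (adjusted p = 0.0102).

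Zbtb46 passed in no comparison between doses. It measured in C57L/J lungs 9.74, 9.86 and 9.84 at 0 Gy, 9.64, 9.75 and 9.86 at 12.5 Gy, and 9.34, 9.84 and 8.5 at 15 Gy. C57BL/6J lungs had 9.57, 10.06 and 8.92 at 0 Gy, 8.8, 8.61 and 9.31 at 12.5 Gy, and 9.25, 8.90 and 9.11 at 15 Gy. Its values in CBA/J lungs were 9.54, 9.43 and 9.13 at 0 Gy, 9.43, 8.74 and 8.82 at 12.5 Gy, and 9.34, 9.48 and 9.21 at 15 Gy. Irradiated and sham-irradiated arrays overlapped in every strain at both doses. It had 9.22 ± 0.48 at 12.5 Gy against 9.57 ± 0.36 at 0 Gy, and 9.22 ± 0.37 at 15 Gy against the same 9.57 (SD, n = 9 each). The change was -0.35 ± 0.15 at 12.5 Gy (SE, 95% interval -0.67 to -0.02, adjusted p = 0.186) and -0.35 ± 0.17 at 15 Gy (-0.71 to 0.02, adjusted p = 0.232). Without the arrays with skeletal muscle transcripts it was -0.04 at 12.5 Gy and -0.11 at 15 Gy, and without those with Glycam1 -0.38 and -0.23. The other 3 probe sets of Zbtb46 changed by between -0.25 and 0.05 over the 3 strains, with adjusted p from 0.425 to 0.956. Endothelial genes, whose cells also express Zbtb46, had a median change of -0.30 at 12.5 Gy and -0.48 at 15 Gy over the 6 listed genes.

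Batf3 and Xcr1, the transcription factor and the chemokine receptor of cDC1, were lower at both doses. For Batf3, C57L/J lungs had 7.22, 7.22 and 7.34 at 0 Gy, 6.74, 6.44 and 6.41 at 12.5 Gy, and 6.44, 6.47 and 7.28 at 15 Gy. C57BL/6J lungs had 7.09, 7.62 and 7.24 at 0 Gy, 6.26, 5.60 and 5.95 at 12.5 Gy, and 5.95, 7.22 and 6.75 at 15 Gy. CBA/J lungs had 7.82, 7.26 and 7.60 at 0 Gy, 6.46, 5.95 and 6.51 at 12.5 Gy, and 6.50, 7.02 and 6.52 at 15 Gy. At 12.5 Gy every array lay below all sham-irradiated arrays. At 15 Gy the 2 arrays that reached into the sham-irradiated range of their strain were C57L/J replicate 3 and C57BL/6J replicate 2. Both carried Glycam1, thyroglobulin and skeletal muscle transcripts. Batf3 changed by -1.12 ± 0.13 at 12.5 Gy (SE, adjusted p = 3.43e-05) and by -0.70 ± 0.17 at 15 Gy (adjusted p = 0.0142), and without the arrays with Glycam1 the change at 15 Gy was -0.88 (adjusted p = 0.00196) and at 12.5 Gy -1.11. The arrays without muscle transcripts gave -0.98 at 12.5 Gy and -0.99 at 15 Gy.

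Xcr1 in C57L/J lungs measured 7.27, 7.32 and 7.31 at 0 Gy, 5.88, 5.80 and 5.85 at 12.5 Gy, and 5.70, 5.98 and 6.24 at 15 Gy. Its values in C57BL/6J lungs were 6.65, 7.43 and 7.35 at 0 Gy, 6.41, 6.50 and 5.75 at 12.5 Gy, and 4.77, 5.88 and 6.90 at 15 Gy. In CBA/J lungs they were 7.59, 7.82 and 7.38 at 0 Gy, 6.77, 6.58 and 6.91 at 12.5 Gy, and 5.30, 6.52 and 5.33 at 15 Gy. Irradiated and sham-irradiated lungs of the same strain did not overlap, except for C57BL/6J replicate 3 at 15 Gy. Xcr1 changed by -1.08 ± 0.14 at 12.5 Gy (SE, adjusted p = 6.76e-05) and by -1.5 ± 0.25 at 15 Gy (adjusted p = 0.0011), or 2.11-fold and 2.83-fold. The change of Xcr1 was -1.29 at 12.5 Gy and -1.77 at 15 Gy without the muscle arrays, and -1.12 and -1.59 without those with Glycam1.

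Itgae, the alpha chain of the integrin CD103, also separated irradiated from sham-irradiated mice on every array. In C57L/J lungs it measured 8.81, 9.07 and 9.13 at 0 Gy, 7.90, 7.10 and 6.77 at 12.5 Gy, and 6.61, 6.13 and 8.16 at 15 Gy. C57BL/6J lungs had 9.10, 9.06 and 9.10 at 0 Gy, 6.76, 6.74 and 7.11 at 12.5 Gy, and 6.75, 7.19 and 7.22 at 15 Gy. CBA/J lungs had 9.54, 9.47 and 9.59 at 0 Gy, 7.5, 6.89 and 7.42 at 12.5 Gy, and 7.25, 7.33 and 7.54 at 15 Gy. No irradiated array reached the lowest sham-irradiated one, and the nearest was C57L/J 15 Gy replicate 3. Itgae changed by -2.07 ± 0.14 at 12.5 Gy (SE, adjusted p = 1.69e-07) and by -2.08 ± 0.19 at 15 Gy (adjusted p = 7.03e-06), which is 4.21-fold at either dose. Its changes were -1.87 at 12.5 Gy and -2.43 at 15 Gy without the muscle arrays, and -2.05 and -2.29 without those with Glycam1. Its second probe set changed by -1.66 ± 0.23 at 12.5 Gy (adjusted p = 0.000289 over 34958 probe sets) and by -1.82 ± 0.33 at 15 Gy (adjusted p = 0.00336).

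Cd209a, a C-type lectin of monocyte-derived dendritic cells in mice, was lower at both doses, by less than 1 log2 unit over the 3 strains. In C57L/J lungs it measured 7.85, 7.85 and 7.99 at 0 Gy, 7.55, 7.30 and 7.66 at 12.5 Gy, and 7.35, 6.53 and 6.57 at 15 Gy. C57BL/6J lungs had 8.19, 8.40 and 8.38 at 0 Gy, 8.14, 7.27 and 7.89 at 12.5 Gy, and 7.56, 7.54 and 7.12 at 15 Gy. CBA/J lungs had 8.83, 8.69 and 8.78 at 0 Gy, 7.93, 7.97 and 7.67 at 12.5 Gy, and 8.05, 8.18 and 8.37 at 15 Gy. In each strain all irradiated arrays lay below the sham-irradiated arrays of that strain. Cd209a changed by -0.62 ± 0.11 at 12.5 Gy (SE, adjusted p = 0.00181) and by -0.85 ± 0.12 at 15 Gy (adjusted p = 0.000247), with -0.49 and -0.8 when the muscle arrays were left out and -0.6 and -0.83 when those with Glycam1 were.

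Ccr7, the migration receptor of mature dendritic cells and of naive T cells, was lower at both doses. In C57L/J lungs it measured 8.67, 9.08 and 9.16 at 0 Gy, 7.26, 7.49 and 7.87 at 12.5 Gy, and 6.79, 8.14 and 8.98 at 15 Gy. C57BL/6J lungs had 8.85, 8.72 and 8.80 at 0 Gy, 7.18, 6.87 and 6.95 at 12.5 Gy, and 7.26, 8.52 and 7.34 at 15 Gy. CBA/J lungs had 8.30, 8.54 and 8.48 at 0 Gy, 6.68, 6.90 and 6.12 at 12.5 Gy, and 6.61, 7.65 and 7.10 at 15 Gy. The irradiated arrays at 12.5 Gy lay apart from all sham-irradiated arrays. The highest arrays at 15 Gy, at 8.98 and 8.52, were the pair that carried Glycam1, thyroglobulin and skeletal muscle transcripts. On the first of these, C57L/J 15 Gy replicate 3, the 11 measured T cell genes averaged 8.93, against 6.27 and 6.54 on the other arrays of its group. The 3 thymocyte genes were also highest on that array, at 8.28, and which tissue its T cell transcripts came from was not tested. Ccr7 changed by -1.70 ± 0.12 at 12.5 Gy (SE, adjusted p = 2.11e-07) and by -1.13 ± 0.25 at 15 Gy (adjusted p = 0.00808), and without the arrays with Glycam1 the change at 15 Gy was -1.43 (adjusted p = 0.00063) and at 12.5 Gy -1.68. Ccr7 changed by -1.61 at 12.5 Gy and -1.47 at 15 Gy without the muscle arrays.

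Siglech, a lectin receptor of plasmacytoid dendritic cells in mice, passed at 12.5 Gy only, and was the gene of the 9 whose call over the 3 strains moved with the arrays used. It measured in C57L/J lungs 6.61, 6.53 and 6.75 at 0 Gy, 4.75, 5.92 and 6.05 at 12.5 Gy, and 6.15, 5.54 and 7.45 at 15 Gy. C57BL/6J lungs had 6.42, 7.13 and 6.46 at 0 Gy, 6.47, 6.17 and 5.67 at 12.5 Gy, and 3.83, 6.56 and 5.39 at 15 Gy. CBA/J lungs had 6.87, 6.89 and 7.54 at 0 Gy, 6.77, 5.39 and 5.69 at 12.5 Gy, and 6.36, 5.93 and 5.97 at 15 Gy. Irradiated and sham-irradiated arrays of C57BL/6J overlapped at both doses, and those of C57L/J at 15 Gy. Siglech changed by -0.92 ± 0.22 at 12.5 Gy (SE, adjusted p = 0.0144), a call that remained without the arrays with Glycam1 (-0.85, adjusted p = 0.0294) and was lost in 1 fit over all 27 arrays (adjusted p = 0.0754) and without the arrays with skeletal muscle transcripts (-0.99, adjusted p = 0.0567). At 15 Gy the change was -0.89 ± 0.33 (adjusted p = 0.0963), and it passed without C57L/J 15 Gy replicate 3 (-1.09, adjusted p = 0.0234), without the arrays with Glycam1 (-1.21, adjusted p = 0.0136) and without the arrays with skeletal muscle transcripts (-1.54, adjusted p = 0.0172).

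**Figure D2:**
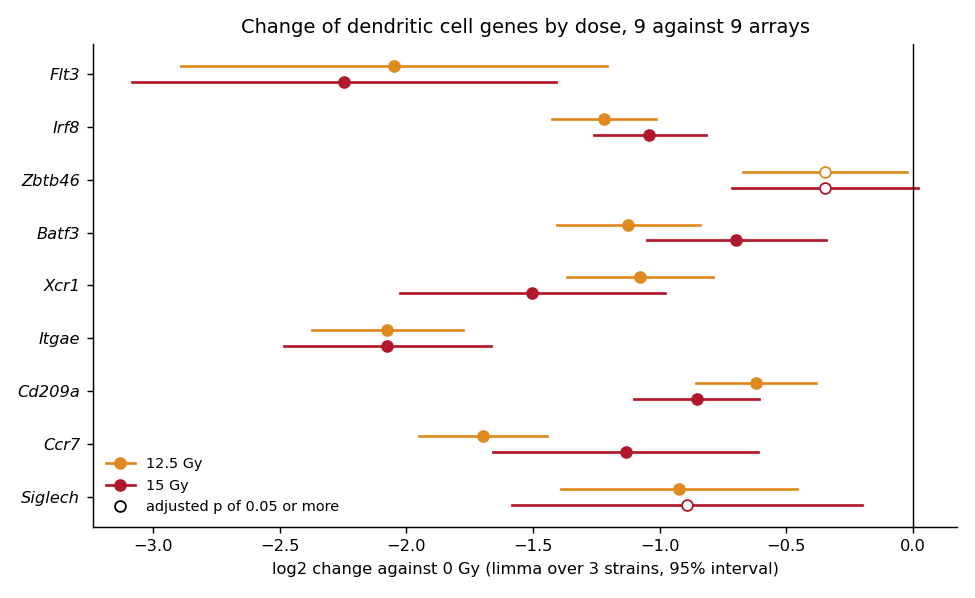
Log2 change of 9 dendritic cell genes at 12.5 and 15 Gy against 0 Gy from the limma fits over 3 strains (points) with 95% intervals (lines), 9 against 9 arrays at each dose, with open points at an adjusted p of 0.05 or more. Zbtb46 lay at -0.35 at both doses, and the largest changes were those of Flt3 and Itgae.

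The higher dose gave no detectable further change. Between 15 and 12.5 Gy, over the 3 strains, 0 of the 9 genes passed the adjusted threshold in limma, against 0% of all genes, and 2 of the 9 had an unadjusted p under 0.05, against 3.78% of all genes. Batf3 averaged 6.68 ± 0.43 at 15 Gy and 6.26 ± 0.36 at 12.5 Gy (SD, n = 9 each), a difference of 0.43 (95% interval 0.05 to 0.80, adjusted p = 0.999). Ccr7 averaged 7.60 ± 0.80 at 15 Gy and 7.04 ± 0.50 at 12.5 Gy (SD, n = 9 each), a difference of 0.56 (0.02 to 1.11, adjusted p = 0.999), and 2 of the 3 arrays with Glycam1 were at 15 Gy. For Itgae the difference was under 0.01 in size with an interval of -0.49 to 0.49, and for Flt3 it was -0.20 (-1.36 to 0.97).

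Within single strains, where 3 arrays stood against 3, fewer genes passed. In C57L/J lungs Flt3, Xcr1 and Irf8 were lower at 12.5 Gy, 3 of 9 genes against 0.324% of all genes, and 6 of 9 had an unadjusted p under 0.01 and a lower level, against 2.85%. At 15 Gy 0 of 9 genes passed in C57L/J lungs, against 0% of all genes, while 5 of 9 were lower at an unadjusted p under 0.01, against 1.08%. For Flt3 the SD of the C57L/J group was 1.21 at 15 Gy against 0.05 at 0 Gy (n = 3 each), with replicate 3 highest at 6.51. With any array left out, the count in C57L/J at 15 Gy stayed at 0. In C57BL/6J lungs Itgae and Ccr7 were lower at 12.5 Gy (2 of 9 genes against 0.363% of all genes), and Itgae alone at 15 Gy (1 of 9 against 0.022%). At the unadjusted threshold 4 of 9 were lower at 12.5 Gy, against 2.67%, and 4 of 9 at 15 Gy, against 2.22%.

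In CBA/J lungs 0 of 9 genes passed at 12.5 Gy, against 0.022% of all genes, although 6 of 9 were lower at an unadjusted p under 0.01, against 2.34%, and Itgae (-2.27 ± 0.20, adjusted p = 0.0574) and Irf8 (-1.5 ± 0.16, adjusted p = 0.0669) lay near the threshold. At 15 Gy Itgae and Irf8 passed in CBA/J lungs, 2 of 9 genes against 0.588%, and 7 of 9 were lower at the unadjusted threshold, against 3.2%. No gene of the 9 was higher at an adjusted p under 0.05 in any comparison with 0 Gy. Of all genes, 0% to 0.418% were higher within strains, and 2.97% and 4.21% over the 3 strains. The calls at 12.5 Gy in C57L/J and in C57BL/6J lungs ended when any one of their 6 arrays was left out, and at 15 Gy 0 to 1 genes passed in C57BL/6J and 0 to 1 in CBA/J lungs with an array left out.

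**Figure D3:**
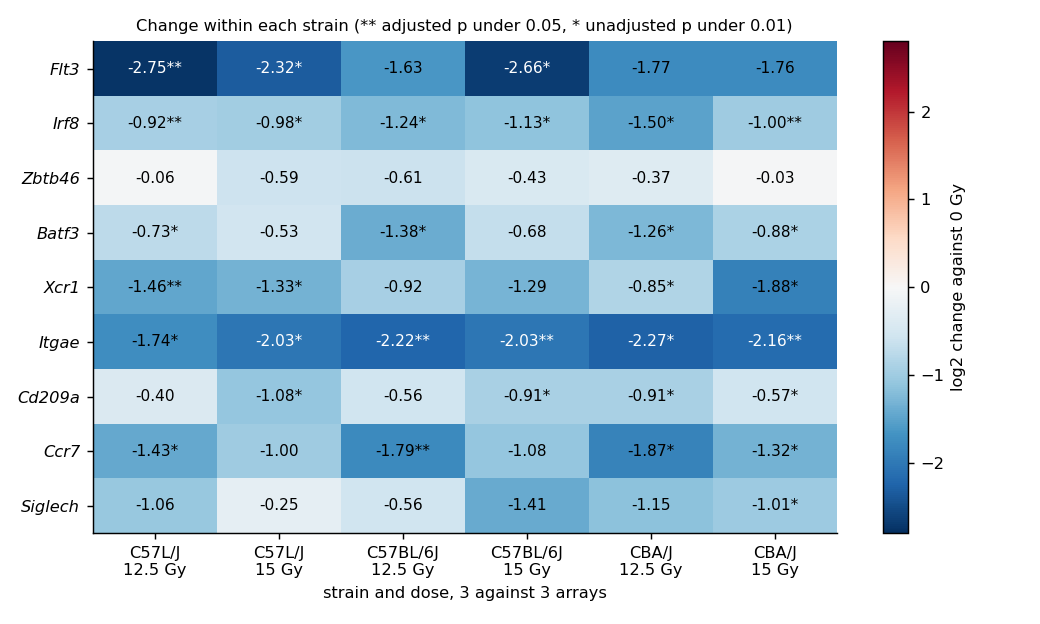
Log2 change against 0 Gy of 9 dendritic cell genes (rows) within each strain and dose (columns), 3 against 3 arrays, coloured from blue for lower to red for higher, with marks for an adjusted p under 0.05 and an unadjusted p under 0.01. Itgae ran from -2.27 to -1.74 over the 6 comparisons, and every change in the grid was below 0.

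Whether the strains differed in their response was tested as the difference between strains in the change from 0 Gy to the mean of both irradiated doses. None of the 9 genes passed in C57L/J against C57BL/6J (0.0055% of all genes), in CBA/J against C57BL/6J (0%) or in CBA/J against C57L/J (0%). At an unadjusted p under 0.01 the count was 0 of 9 in each, against 1.01%, 1.34% and 1.07% of all genes in that order. In CBA/J against C57BL/6J, Itgae differed by -0.09 (95% interval -0.54 to 0.36) and Irf8 by -0.07 (-0.48 to 0.34). In C57L/J against C57BL/6J, Itgae differed by 0.24 (-0.81 to 1.29) and Xcr1 by -0.29 (-1.33 to 0.75). Flt3 was measured with less precision, and its difference in CBA/J against C57BL/6J was 0.38 (-1.97 to 2.73), so that a sizeable difference was not detectable with these arrays.

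Among the sham-irradiated strains, Cd209a passed in CBA/J against C57L/J. It averaged 8.77 ± 0.07 in CBA/J lungs and 7.90 ± 0.08 in C57L/J lungs (SD, n = 3 each), a difference of 0.87 ± 0.10 (SE, limma adjusted p = 0.0255), 1 of 9 genes against 1.52% of all genes. That call was lost when any one of the 6 arrays was left out, and also without the muscle arrays or the array with Glycam1. Of the CBA/J sham-irradiated arrays, replicates 1 and 2 carried muscle transcripts and replicate 3 carried Glycam1. No C57L/J sham-irradiated array carried either, so strain and these other tissues cannot be told apart here. C57BL/6J lungs, at 8.32 ± 0.12, lay between them, with an adjusted p of 0.239 in CBA/J against C57BL/6J and 0.39 in C57L/J against C57BL/6J. None of the 9 genes passed in those 2 comparisons, against 1.09% and 0.17% of all genes. Itgae averaged 9.53 ± 0.06 in CBA/J lungs, against 9.00 ± 0.17 in C57L/J and 9.09 ± 0.03 in C57BL/6J lungs (SD, n = 3 each), with adjusted p of 0.136 and 0.178.

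Further genes of each dendritic cell subset were followed in the same fits over 3 strains. There 6.17% of all genes were lower at 12.5 Gy and 6.16% at 15 Gy, and 2.97% were higher at 12.5 Gy and 4.21% at 15 Gy. These lists, like the 9 genes, were chosen with earlier results of these data known, so their counts are not an independent check. Of 10 other cDC1 genes, 5 were lower at 12.5 Gy and 5 at 15 Gy, and 0 were higher at either dose, with a median change of -0.43 at 12.5 Gy and -0.46 at 15 Gy. Wdfy4, which cDC1 need to present antigen from other cells, averaged 9.14 ± 0.37 at 12.5 Gy against 10.39 ± 0.18 at 0 Gy (SD, n = 9 each) and changed by -1.25 ± 0.12 (SE, adjusted p = 5.41e-06), and by -1.37 ± 0.11 at 15 Gy (adjusted p = 1.62e-06). Naaa, an amide hydrolase of lysosomes, changed by -0.59 ± 0.12 at 12.5 Gy and by -0.65 ± 0.17 at 15 Gy. Clnk, an adaptor of immune receptors, and Cd207, the lectin langerin, were lower at both doses but dim. For Clnk 7 of 9 arrays at 12.5 Gy and 6 of 9 at 15 Gy lay under a log2 value of 5, against 2 of 9 at 0 Gy, and for Cd207 5 of 9 at 12.5 Gy and 3 of 9 at 15 Gy, against 1 of 9. With a floor at that value, chosen after seeing the data, Clnk changed by -0.75 ± 0.22 at 12.5 Gy (SE, limma adjusted p = 0.0401) and by -0.74 ± 0.20 at 15 Gy (adjusted p = 0.0239). Cd207 changed by -1.39 ± 0.27 at 12.5 Gy (adjusted p = 0.00325) and by -1.34 ± 0.24 at 15 Gy (adjusted p = 0.00199). Unfloored, the changes were -2.34 and -1.58 for Clnk and -2.23 and -1.55 for Cd207, sizes that rest on these dim values.

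Of 7 measured cDC2 genes, 2 were lower at 12.5 Gy, and at 15 Gy 1 was lower and 1 higher, where 4.21% of all genes were higher. Mgl2, a galactose-binding lectin, changed by -0.57 ± 0.12 at 12.5 Gy and by -0.68 ± 0.13 at 15 Gy (SE, adjusted p = 0.00577 and 0.00386). Irf4, a transcription factor of cDC2 and of activated lymphocytes, changed by -0.81 ± 0.17 at 12.5 Gy (adjusted p = 0.00507) and changed by -0.62 ± 0.21 at 15 Gy (adjusted p = 0.0699). Klf4, a transcription factor that many lung cells express, was 0.32 ± 0.09 higher at 15 Gy (adjusted p = 0.0323).

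Of 8 genes that dendritic cell subsets share, 4 were lower at each dose, with median changes of -0.49 at 12.5 Gy and -0.47 at 15 Gy. Itgax, the integrin CD11c, which alveolar macrophages also carry, averaged 9.50 ± 0.41 at 12.5 Gy and 9.48 ± 0.34 at 15 Gy against 10.04 ± 0.14 at 0 Gy (SD, n = 9 each) and changed by -0.53 ± 0.14 and -0.56 ± 0.13. Btla, an inhibitory receptor that B cells also carry, changed by -2.28 ± 0.13 at 12.5 Gy and by -1.96 ± 0.20 at 15 Gy, and H2-DMb2, a chaperone of antigen loading, by -1.55 ± 0.12 and -1.21 ± 0.19. Kmo, an enzyme of tryptophan breakdown, changed by -1.82 ± 0.33 at 12.5 Gy and by -1.31 ± 0.17 at 15 Gy.

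Of 12 measured genes of mature dendritic cells, 5 were lower at 12.5 Gy and 3 at 15 Gy, and 0 were higher. The costimulatory ligand Cd86 changed by -0.98 ± 0.12 at 12.5 Gy and by -0.82 ± 0.21 at 15 Gy, and Cd83 by -0.86 ± 0.10 and -0.63 ± 0.17. The chemokine Ccl17 changed by -0.92 ± 0.12 at 12.5 Gy and by -0.75 ± 0.16 at 15 Gy, while Ccl22 changed by -1.61 ± 0.33 at 12.5 Gy and changed by -0.89 ± 0.31 at 15 Gy (adjusted p = 0.0838). The list's median change was -0.20 at 12.5 Gy and -0.10 at 15 Gy.

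Of 10 measured genes of plasmacytoid dendritic cells, 2 were lower and 2 higher at 12.5 Gy, and 2 were lower and 1 higher at 15 Gy, against 2.97% of all genes higher at 12.5 Gy and 4.21% at 15 Gy. Spib, a transcription factor that B cells share, changed by -1.80 ± 0.14 at 12.5 Gy and by -1.42 ± 0.23 at 15 Gy, and Pacsin1, a membrane-shaping protein, by -0.56 ± 0.08 and -0.64 ± 0.16. Bst2 (tetherin), an interferon-induced gene of many cell types, averaged 10.71 ± 0.36 at 12.5 Gy and 10.75 ± 0.65 at 15 Gy against 9.91 ± 0.32 at 0 Gy (SD, n = 9 each) and was 0.81 ± 0.11 and 0.84 ± 0.20 higher. Irf7, also interferon-induced, was 0.63 ± 0.13 higher at 12.5 Gy (adjusted p = 0.00495), and 0.51 ± 0.20 above 0 Gy at 15 Gy without passing (adjusted p = 0.111).

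Lymphocyte genes moved in the same comparisons. Of all genes, 6.17% were lower at 12.5 Gy and 6.16% at 15 Gy, and 2.97% and 4.21% were higher. Of 11 measured T cell genes 9 were lower at 12.5 Gy and 3 at 15 Gy, of 8 B cell genes 7 at each dose, and of 5 NK cell genes 5 at each dose, with 0 higher in all 3 lists. The T cell genes averaged 6.06 to 6.83 per array at 12.5 Gy and 6.01 to 8.93 at 15 Gy, against 6.99 to 7.97 at 0 Gy. The B cell genes averaged 6.51 to 7.89 per array at 12.5 Gy and 7.35 to 8.49 at 15 Gy, against 8.64 to 9.40 at 0 Gy. The part of lymphocytes was not tested, neither in the levels of Itgae, Ccr7 and Irf8 nor in those of the further dendritic cell lists, Wdfy4, Cd86, Cd83 and H2-DMb2 among them. Of 5 measured alveolar macrophage genes 1 was lower at each dose, with a median change of 0.17 at both. Of 6 measured genes of monocytes and interstitial macrophages, 3 were lower and 2 higher at 12.5 Gy, against 2.97% of all genes higher, and 3 were lower and 1 higher at 15 Gy, against 4.21%.

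**Figure D4:**
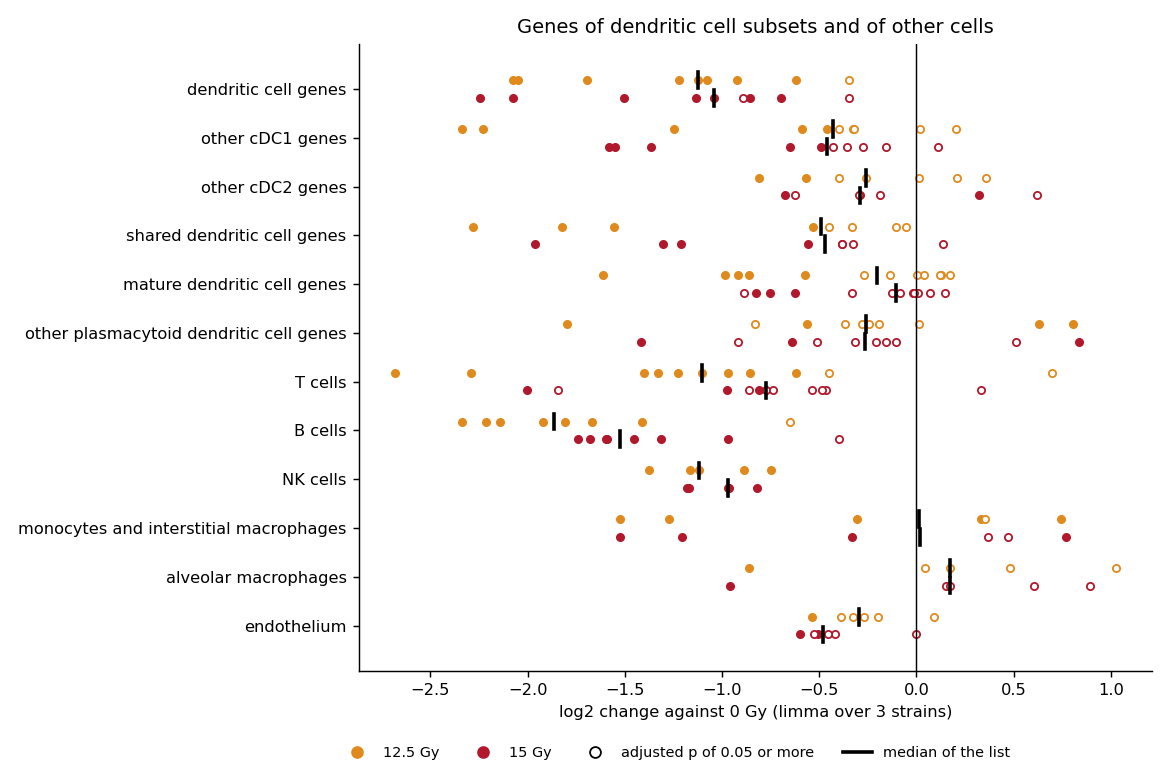
Log2 change against 0 Gy of single genes (points, open at an adjusted p of 0.05 or more) in lists of dendritic cell subsets and of other cells, at 12.5 and 15 Gy over 3 strains, with a bar at each list's median. Median changes of B cell genes were -1.86 at 12.5 Gy and -1.52 at 15 Gy, those of the 9 dendritic cell genes -1.12 and -1.04, and those of alveolar macrophage genes 0.17 and 0.17.

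The promoters of the genes were searched for motifs of the factors among them. RefSeq windows (GRCm38.p6) from 250 bases before to 50 bases after the start were matched to 8 of the 10 named genes, not to Itgae or Ccr7. The motifs were TGANTCA, bound by AP-1 and BATF proteins, GAAANNGAA, bound by interferon regulatory factors, and GGAANNGAA, bound by ETS factors with interferon regulatory factors, each on both strands (TGANTCA reads the same on either). TGANTCA occurred in Zbtb46 alone and in 7.81% of 32851 promoters of the same length, GAAANNGAA in Clec9a alone and in 8.56%, and GGAANNGAA in Cd209a alone and in 8.24%. Shown are the cDC1 genes Batf3 (chr1:191098164-191098463, plus strand) and Xcr1 (chr9:123861980-123862279, minus strand), without a match, and Cd209a (chr8:3748935-3749234, minus strand), whose matches of GGAANNGAA at -152 and, on the other strand, at -8 from the start are in capitals. No match says only that these letters are not in this window.
Batf3: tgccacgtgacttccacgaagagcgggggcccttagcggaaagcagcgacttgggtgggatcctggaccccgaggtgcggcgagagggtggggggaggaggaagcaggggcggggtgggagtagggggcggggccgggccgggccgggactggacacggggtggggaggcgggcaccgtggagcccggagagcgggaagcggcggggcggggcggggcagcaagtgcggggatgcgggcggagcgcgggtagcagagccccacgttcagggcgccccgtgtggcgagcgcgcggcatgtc
Xcr1: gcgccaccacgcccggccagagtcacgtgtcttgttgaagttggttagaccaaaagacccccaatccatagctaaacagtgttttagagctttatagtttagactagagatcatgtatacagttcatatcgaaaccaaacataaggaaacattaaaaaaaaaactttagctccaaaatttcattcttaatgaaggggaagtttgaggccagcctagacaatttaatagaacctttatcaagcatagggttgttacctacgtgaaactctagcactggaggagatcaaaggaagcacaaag
Cd209a: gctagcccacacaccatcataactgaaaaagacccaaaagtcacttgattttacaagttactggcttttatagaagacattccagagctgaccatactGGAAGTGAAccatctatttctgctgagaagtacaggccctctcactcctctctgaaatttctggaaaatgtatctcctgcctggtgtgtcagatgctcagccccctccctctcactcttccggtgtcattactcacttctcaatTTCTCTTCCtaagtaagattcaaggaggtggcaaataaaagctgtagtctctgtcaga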

How the data were processed

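Lung RNA of 27 mice was measured on Affymetrix mouse genome arrays, and the authors deposited linear intensities of 45101 probe sets, made with Affymetrix Expression Console 1.1 per the submitters' notes (which method summarised the probes was not found in those sources). The 2% trimmed mean was 500 on every array and 0 columns belonged to no sample. Values under 1 (37 to 111 of an array) were set to 1 before taking log2; precision is limited by how many arrays each group has. Probe sets with 1 symbol (34958, of which 34754 matched a current symbol) were kept, and those with several (932) or none (9211) left out. The brightest probe set by the mean over 27 arrays stood for each of 18194 genes.

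The tests were those of limma 3.58.1 under R 4.3.3 (lmFit, then eBayes): within strains on 6 arrays, over 3 strains with strain as a term on 18 arrays, and between strains on the 18 arrays of both or, sham-irradiated, on 6. Adjusted p are Benjamini-Hochberg over all genes, and the unadjusted limit was 0.01. Scripts were tested on simulated data. Alternatives were a floor of 32, other choices of probe set, quantile normalization, median-centring, 1 fit over 27 arrays, a robust prior with an intensity trend, the random variance test of the methods, a filter at a mean of 6, the replicate number as a block, and leaving out the arrays with muscle transcripts (a muscle mean over 1 log2 unit above the median array) or each array in turn. Leaving out arrays with Glycam1 above 9, and the floor of 32 for Clnk and Cd207, were chosen after seeing the data. The members and gene lists were chosen with earlier results of these data known. All members were named, and of each list of dendritic cell genes at most 4 that passed over the 3 strains, those with the largest changes. Figures were drawn with matplotlib 3.10.9.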

Additional observations from a re-analysis of the deposited data

How the results depend on the processing

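The counts over the 3 strains (8 of 9 at 12.5 Gy, 7 of 9 at 15 Gy) stayed within 1.5 times under every alternative run, and of the single genes in those fits only Siglech changed its side of the threshold; the filter at a mean above 6 left Flt3 untested. Counts within strains rest on 3 against 3 arrays and moved. In C57L/J at 12.5 Gy, 3 genes passed, against 0 with the most variable probe set, 5 with the intensity trend, 5 with the filter at a mean above 6, and 0 with any array left out. In C57L/J at 15 Gy 1 fit over 27 arrays called 3 rather than 0. In C57BL/6J at 12.5 Gy, 2 passed, against 0 with the most variable probe set, 4 in 1 fit over 27 arrays, 4 with the intensity trend, 4 with the filter, 0 without the muscle arrays and 0 with any array left out. In C57BL/6J at 15 Gy, 1 passed, against 0 with a floor of 32, 0 with the most variable probe set, 0 with the mean of probe sets, 0 with median-centred arrays, 3 in 1 fit over 27 arrays, 2 with the intensity trend, 2 with the filter, 0 without the muscle arrays, 0 without the array with Glycam1, and 0 to 1 with an array left out. In CBA/J at 12.5 Gy, 0 passed, against 2 with a floor of 32, 5 in 1 fit over 27 arrays, 3 with the intensity trend and 3 with the filter; leaving out the muscle arrays could not be run there. In CBA/J at 15 Gy, 2 passed, against 1 with the most variable probe set, 0 with the mean of probe sets, 4 with the intensity trend, 0 without the muscle arrays, 1 without the array with Glycam1, and 0 to 1 with an array left out. Replicate numbers were not taken as pairs (same-number correlations of deviations from -0.07 to 0.25, in 0 of 9 pairs of doses all over 0.1). In CBA/J at 12.5 against 0 Gy they were 0.084, 0.249 and 0.134, and at most 0.077 between different numbers. The CBA/J strain labels carry a code that follows the replicate number at every dose, and its meaning is not given. With the replicate block 0 genes passed in C57L/J at 12.5 Gy, 0 in C57BL/6J at 12.5 or 15 Gy and 0 in CBA/J at 15 Gy. The counts over 3 strains remained 8 and 7 with that block. Between sham-irradiated strains, CBA/J against C57BL/6J gave 1 with a floor of 32, and CBA/J against C57L/J gave 0 with the most variable probe set, 0 without the muscle arrays, 0 without the array with Glycam1 and 0 with any array left out. The direction turned only for changes that never passed: Siglech in C57L/J at 15 Gy was 0.17 without 15 Gy replicate 2 and ranged from -0.79 to 0.17 with an array left out, and Zbtb46 in CBA/J at 15 Gy was 0.02 with the mean of probe sets, 0.03 with median-centred arrays, 0.21 without the muscle arrays, and between -0.14 and 0.06 with an array left out. Over all genes, the calls in either direction over the 3 strains numbered 1664 at 12.5 Gy, against 900 with the most variable probe set and 578 without the muscle arrays, and 1887 at 15 Gy, against 922 with the most variable probe set, 1225 with the mean of probe sets and 818 without the muscle arrays. The cause of these moves was not tested. Of 1396 gene values under alternatives, 1281 kept direction and side of the threshold, 69 no longer passed, 39 newly passed and 7 turned.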
